A study of Neurospora crassa with 10 samples.

Results

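Introns in untranslated regions (UTRs) are the gaps between consecutive exons that lie wholly before or wholly after the coding sequence (CDS) of a transcript. They were taken from the gene annotation of the corrected Neurospora crassa assembly nc14, using for each protein-coding gene the transcript with the longest summed CDS and, in a tie, the lowest transcript ID. Of the 16972 introns in the 9730 transcripts chosen this way, 1341 were UTR introns: 1052 lay in 5′ UTRs and 289 in 3′ UTRs. The other 15631 interrupted the CDS. The series holds in situ Hi-C, an assay of contacts between chromosome regions, of germinated conidia of 2 wild type strains, N150 and N3752 (both 74-OR23-1VA). The restriction enzymes were DpnII, MseI or a mixture of them, and the labels describe 10 datasets, with 8, 15 or 23 PCR cycles where a label gives the number. The annotation belongs to the series as a whole and holds no value of any library, so no sequencing depth or replicate error applies. Every count below is a complete enumeration of the annotated models, and every difference is a description with no test.

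An intron in a 5′ UTR is removed from the RNA before the ribosome reaches the start codon, so it leaves the protein unchanged while it alters the length and sequence of the leader. In fungi, plants and animals such introns are known to affect transcription, export and translation of the messenger RNA. An intron in a 3′ UTR leaves an exon junction behind the stop codon, and in mammals such a junction is a classical trigger of nonsense-mediated decay, the pathway that removes messages with early stop codons. Intron sequences were not analysed here.

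UTR introns were far less common than CDS introns and were spread over many genes. They occurred in 1179 genes (12.1% of 9730), against 7574 genes (77.8%) with an intron inside the CDS. An intron in the 5′ UTR was annotated in 934 genes, which is 9.60% of all genes and 12.3% of the 7622 genes with a 5′ UTR. An intron in the 3′ UTR was annotated in 269 genes, which is 2.76% of all genes and 3.46% of the 7775 genes with a 3′ UTR. Both UTRs held an intron in 24 genes, which make up 2.57% of the genes with a 5′ UTR intron and 8.92% of those with a 3′ UTR intron. Of the 2156 genes without an intron in the CDS, 361 (16.7%) were interrupted in a UTR alone. In 319 of the 1179 genes (27.1%), the UTR intron was the sole intron of the transcript.

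Most of these genes had 1 UTR intron. In 5′ UTRs, 827 genes held 1 intron, 99 held 2 and 6 held 3. Above these stood ccg-14 (NCU07787), a gene of the cerato-platanin family, with 4 and NCU00768 with 5. Those with 3 included NCU03033 (547, 333 and 656 bp), NCU03621 (224, 201 and 118 bp) and NCU03791 (82, 95 and 84 bp), so that lengths differed widely within one leader and little within another. In 3′ UTRs, 249 genes held 1 intron, 20 held 2 and no gene held more. Among the 20 were NCU00595 (96 and 219 bp), NCU00662 (52 and 64 bp), NCU00723 (57 and 108 bp), NCU00849 (72 and 71 bp) and NCU01526 (78 and 81 bp).

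The amount of exon sequence differed between the classes, so introns were also counted per kb of exon. The 5′ UTRs had 0.344 introns per kb over 3061 kb of exon, and the 3′ UTRs had 0.0855 introns per kb over 3380 kb. The CDS had 1.05 introns per kb over 14887 kb. The order was therefore the CDS first, then the 5′ UTR and last the 3′ UTR, whereas both kinds of UTR held similar amounts of exon.

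Introns of 5′ UTRs were longer than both other classes, and introns of 3′ UTRs resembled those of the CDS. The median length was 103 bp in 5′ UTRs (quartiles 70 and 198 bp), 71 bp in 3′ UTRs (61 and 98 bp) and 74 bp in the CDS (62 and 109 bp). The most frequent single length was similar in the 3 classes, at 65 bp in 5′ UTRs, 60 bp in 3′ UTRs and 59 bp in the CDS. The difference lay in the share of long introns. Lengths of 200 bp or more made up 24.9% of 5′ UTR introns (262), 10.4% of 3′ UTR introns (30) and 10.4% of CDS introns (1619). Lengths of 500 bp or more made up 4.47% of 5′ UTR introns (47), 1.73% of 3′ UTR introns (5) and 1.57% of CDS introns (246). The compact class of 50 to 80 bp held 34.7% of 5′ UTR introns, 61.6% of 3′ UTR introns and 56.9% of CDS introns. A length divisible by 3, which would leave a reading frame unchanged if the intron were kept, was found in 31.9% of 5′ UTR introns, 34.6% of 3′ UTR introns and 33.5% of CDS introns.

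**Figure D1:**
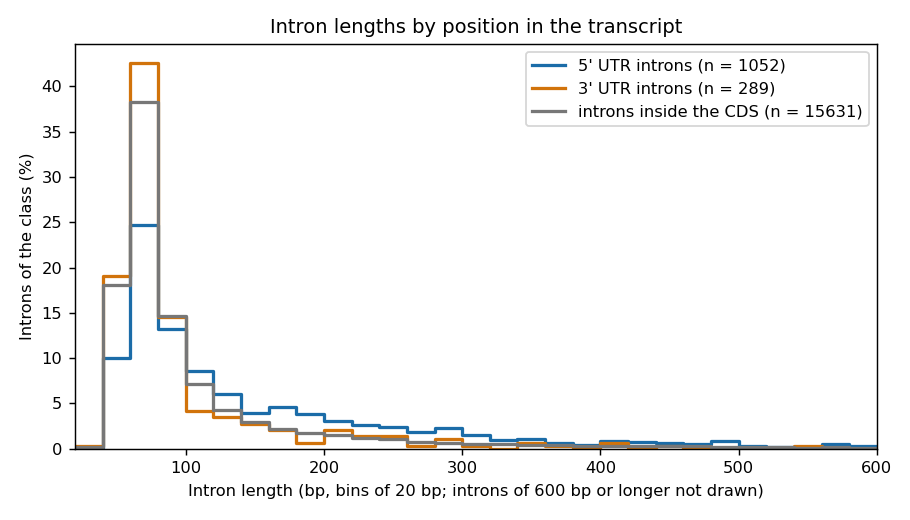
Share of the introns of each class (%) by intron length (bp, bins of 20 bp) for 5′ UTR introns, 3′ UTR introns and introns inside the CDS, with introns of 600 bp or longer (3.04%, 1.38% and 0.825% in that order) left out of the drawing. All 3 classes peak between 60 and 80 bp, where the 5′ UTR line is the lowest, and from 100 to 300 bp the 5′ UTR line is the highest.

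The plot of intron lengths shows a shared peak of short introns and a longer right-hand side for the 5′ UTR. First introns of the CDS were shorter than 5′ UTR introns. The first CDS intron had a median of 73 bp in the 664 genes that also had a 5′ UTR intron, and 80 bp in the 6910 genes without one. Within a gene, the first 5′ UTR intron was longer than the first CDS intron in 435 of 664 genes (65.5%) and equal to it in 5. In the 3′ UTR, the longest intron exceeded the last CDS intron of the same gene in 82 of 171 genes (48.0%) and equaled it in 5. Where both UTRs were interrupted, the longest 5′ UTR intron exceeded the longest 3′ UTR intron in 16 of 24 genes. The 5′ UTR introns of genes with a CDS intron had a median of 108 bp (n = 752), and those of genes without one had a median of 94 bp (n = 300).

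The 5′ UTR intron lengths varied little with the distance from the start codon until the farthest introns. Distances here count exon bases alone, as in the spliced RNA. The median length was 106 bp at 0 to 50 nt, 109 bp at 101 to 200 nt, 111 bp at 201 to 400 nt, 94.5 bp at 401 to 800 nt and 85 bp beyond 800 nt. In 3′ UTRs the medians by distance from the stop codon lay between 68 and 81.5 bp.

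The longest 5′ UTR intron in the annotation, 1873 bp, belonged to NCU05721 (LG III, 631539 to 633411 of nc14, minus strand) and was 590 nt from the start codon. The next, 1775 bp on LG II (2574197 to 2575971, minus strand), belonged to en(am)-2 (NCU01744), which encodes glutamate synthase. The 3 CDS introns of that transcript measured 60 bp each. NCU04254 had an intron of 1593 bp (LG V, 5754684 to 5756276), NCU05891 had 1 of 1316 bp (LG VII, 4183513 to 4184828) and NCU00768 had 1 of 1167 bp (LG I, 7428942 to 7430108). In NCU05891 the intron was the sole one of the gene, and NCU04254 had no intron inside its CDS of 4941 nt.

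NCU00768 had the most 5′ UTR introns of any gene. Its 5 introns measured 65, 1167, 61, 284 and 849 bp in transcript order, and the last ended 4 nt before the start codon. The exon bases of this leader came to 623 nt. A further 443 bp intron separated the last CDS exon from the stop codon. In 78 of the 934 genes with a 5′ UTR intron (8.35%), the introns summed to more bases than the exons of that UTR, and the same held for 10 of 269 genes (3.72%) in the 3′ UTR.

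**Figure D2:**
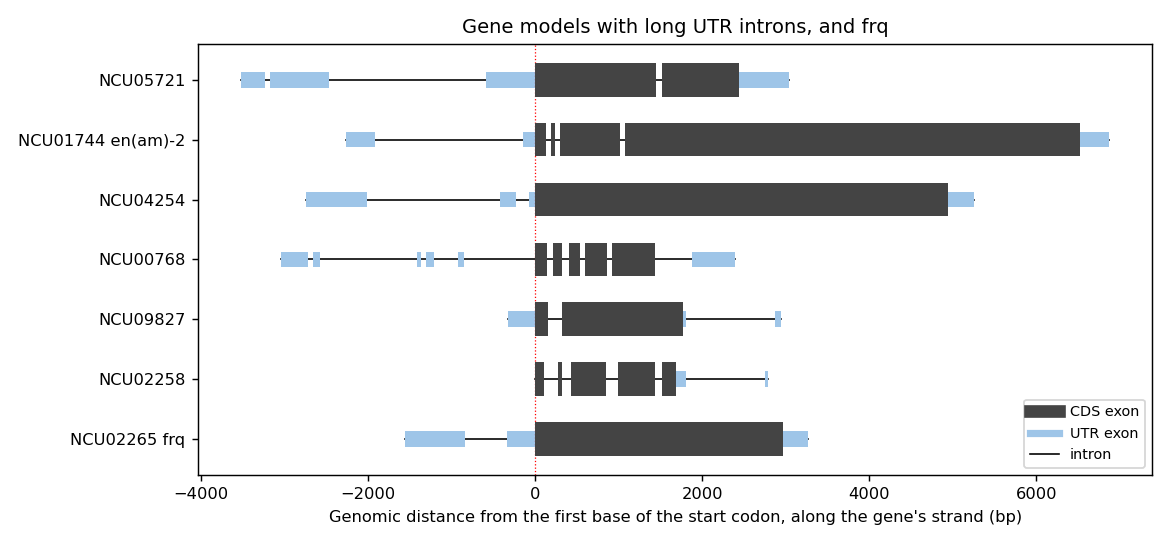
Exon and intron models of 6 genes with long UTR introns and of frq, drawn to scale by distance from the first base of the start codon (bp, along the strand of the gene), with CDS exons as dark boxes, UTR exons as light boxes and introns as lines. The 5′ UTR introns of NCU05721, en(am)-2, NCU04254 and NCU00768 exceed 1000 bp, and NCU09827 and NCU02258 carry 3′ UTR introns of 1063 and 941 bp.

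The longest 3′ UTR introns were shorter than these. They measured 1063 bp in NCU09827 (LG V, 910091 to 911153), 941 bp in NCU02258 (LG VII, 3152377 to 3153317), 713 bp in NCU01371, 623 bp in NCU04264 and 548 bp in NCU17031. As the drawn gene models show, the intron of NCU02258 was followed by a terminal exon of 33 nt, and that of NCU09827 by 73 nt. The intron of NCU09827 held a whole gene, NCU09828 (433 bp, 910357 to 910789), on the opposite strand. No other UTR intron enclosed a protein-coding gene.

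At the other end of the scale, the shortest 5′ UTR introns measured 46 bp in NCU06446, 47 bp in NCU06478, and 48 bp in NCU02799 and NCU09575. The shortest 3′ UTR intron measured 36 bp and belonged to gh61-7 (NCU00836; LG I, 7195563 to 7195598). Members of the gh61 family are lytic polysaccharide monooxygenases, which cleave cellulose. The next were 46 bp in NCU04844 and 49 bp in NCU00370. Inside the CDS the shortest annotated gap measured 21 bp.

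UTR introns lay near the coding sequence. The median distance was 172 nt from a 5′ UTR intron to the start codon (quartiles 62.8 and 393 nt) and 189 nt from the stop codon to a 3′ UTR intron (71 and 367 nt). An intron within 100 nt of the codon was counted 380 times in 5′ UTRs (36.1%) and 101 times in 3′ UTRs (34.9%). Distances of 10 nt or less were found for 47 introns of 5′ UTRs (4.47%) and 21 of 3′ UTRs (7.27%). Of the 5′ UTR introns, 687 (65.3%) lay closer to the start codon than to the transcript start, and 191 of the 3′ UTR introns (66.1%) lay closer to the stop codon than to the transcript end. The first exon of transcripts with a 5′ UTR intron had a median length of 269 nt, and a median of 366 nt of exon followed a 3′ UTR intron.

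Few transcripts have long UTRs, so UTR exon is itself most plentiful near the codons, and introns were therefore counted per kb of UTR exon in bins of 50 nt. The 5′ UTR held 0.594 introns per kb in the last 50 nt before the start codon, 0.444 in the next 50 nt and 0.324 in the next. From 450 to 499 nt upstream it held 0.245. Farther out, where fewer genes have UTR sequence, the values went up and down, with 0.415 at 700 to 749 nt (21 introns), 0.0737 at 900 to 949 nt (2 introns) and 0.561 at 950 to 999 nt (13 introns). The 3′ UTR held 0.148 introns per kb in the first 50 nt after the stop codon, 0.118 and 0.0940 in the next bins and 0.0645 from 450 to 499 nt. Over 1000 nt, the bin beside the codon had the highest density in both UTRs, although the 5′ UTR bin at 950 to 999 nt came close to it. The first 50 nt of the CDS held 2.60 introns per kb. The last 50 nt of the CDS held 1.06 introns per kb.

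**Figure D3:**
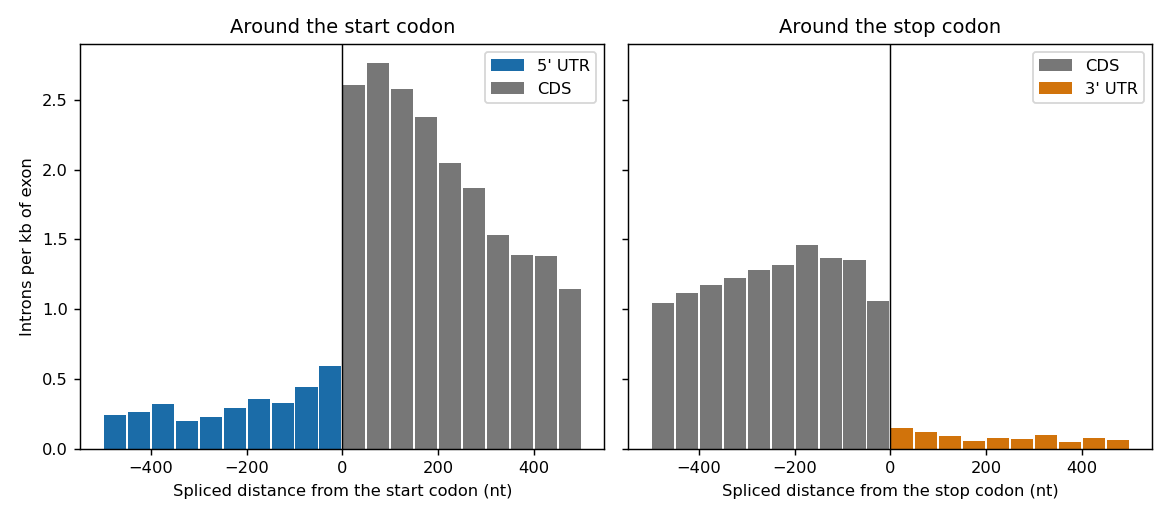
Introns per kb of exon in bins of 50 nt of spliced distance around the start codon (left, 5′ UTR and CDS) and the stop codon (right, CDS and 3′ UTR), out to 500 nt on each side. The 5′ UTR bars reach 0.594 beside the start codon against 2.60 in the first CDS bin, and the 3′ UTR bars reach 0.148 beside the stop codon against 1.06 in the last CDS bin.

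A few introns left no exon base between themselves and a codon. In 6 genes (NCU00464, NCU01158, NCU03297, NCU03340, NCU05401 and NCU09853) the 5′ UTR intron ended at the base before the start codon. In 5 genes the 3′ UTR intron began directly after the stop codon. They were NCU00849, NCU04667, NCU08786, NCU09421 and ccg-4 (NCU02500), which encodes a pheromone precursor and had an intron of 69 bp there. In 2 further genes the intron came before the end of the stop codon, because the CDS records of the annotation leave this codon out. The intron of NCU00768 lay before the whole codon, and the intron of NCU17251 (55 bp) divided it. With the stop codon counted as CDS, 287 introns of 3′ UTRs remained.

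Of the 289 introns in 3′ UTRs, 229 (79.2%) began more than 55 nt downstream of the stop codon, in 212 of the 269 genes (78.8%). Most 3′ UTR exon also lay that far away, since the bin from 0 to 49 nt held 385 of 3380 kb. That bin had 0.148 introns per kb, against 0.0855 over all 3′ UTR exon. The 79.2% is therefore no excess of introns at this distance. More than 55 nt is a distance class used for decay in mammals. Whether these Neurospora transcripts are decayed was not analysed here.

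The farthest introns sat in long UTRs. The 5′ UTR intron of NCU09637 (59 bp, LG IV) was 8284 nt from the start codon, in a leader of 9173 nt of exon. Both 5′ UTR introns of pks-4 (NCU08399), a polyketide synthase gene, were 2909 and 2247 nt away, that of aod-5 (NCU03938), a transcription factor gene for the alternative oxidase, 2061 nt, and that of NCU09116 1800 nt. In 3′ UTRs the farthest was the second 3′ UTR intron of hH2Az (NCU05347), which encodes the histone variant H2A.Z. It measured 285 bp and began 2037 nt after the stop codon, in a 3′ UTR of 2677 nt. NCU03268 followed with 1940 nt, NCU05587 with 1853 nt, NCU06227 with 1772 nt and tah-4 (NCU07945) with 1281 nt.

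The share of genes with a UTR intron was larger in long UTRs than in short ones. For 5′ UTRs it was 2.93% at 1 to 99 nt of exon, 9.24% at 200 to 299 nt, 21.2% at 500 to 749 nt and 32.6% (138 of 423 genes) at 1000 nt or more. For 3′ UTRs it was 0.202% at 1 to 99 nt, 1.90% at 100 to 199 nt, 1.69% at 200 to 299 nt, 4.93% at 500 to 749 nt and 12.0% (57 of 475 genes) at 1000 nt or more. In every length class the 5′ UTR share exceeded the 3′ UTR share.

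**Figure D4:**
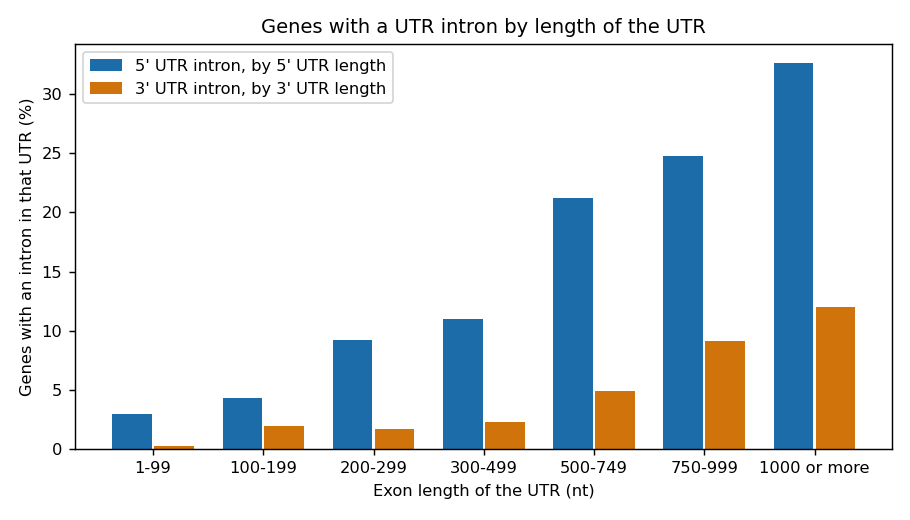
Percentage of genes with an intron in the UTR, by the summed exon length of that UTR (nt), for 5′ UTRs and 3′ UTRs. The bars reach 32.6% for 5′ UTRs and 12.0% for 3′ UTRs of 1000 nt or more, and 2.93% and 0.202% for UTRs under 100 nt.

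Genes with a UTR intron differed from genes with an uninterrupted UTR in more than the length of that UTR. The 5′ UTR exons of genes with a 5′ UTR intron had a median of 543 nt, against 291 nt in the 6688 genes with a 5′ UTR and no intron in it. Their median CDS was 1404 nt, against 1335 nt. The 3′ UTR exons of genes with a 3′ UTR intron had a median of 606 nt, against 342 nt in the 7506 genes with a 3′ UTR and no intron in it. Their CDS was short, with a median of 972 nt against 1365 nt, and so was their 5′ UTR, with 213 nt against 304 nt.

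A CDS without any intron was more frequent among genes with a UTR intron. It was found in 28.9% of genes with a 5′ UTR intron (270 of 934), against 21.5% of genes with an uninterrupted 5′ UTR (1438 of 6688). For the 3′ UTR it was found in 36.4% (98 of 269), against 21.4% (1607 of 7506). The difference kept its sign in each of 4 classes of UTR length. In the class of 300 to 499 nt, for example, it was 32.5% against 19.8% for the 5′ UTR and 45.1% against 20.4% for the 3′ UTR. The mean number of CDS introns per gene was nevertheless alike for the 5′ UTR, at 1.588 with the intron and 1.593 without. For the 3′ UTR it was lower with the intron, at 1.27 against 1.62.

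Genes with a UTR intron were also annotated with several transcripts more often. A UTR intron that varies between transcripts, as many counted below did, itself gives its gene more than 1 transcript. The comparison is therefore partly circular, and classes of UTR length do not remove this. At least 2 transcripts were listed for 28.1% of genes with a 5′ UTR intron (262), against 8.91% of genes with an uninterrupted 5′ UTR (596). They were listed for 21.6% of genes with a 3′ UTR intron (58), against 10.9% with an uninterrupted 3′ UTR (815). Within 4 classes of 5′ UTR length the shares with and without the intron were 20.8% and 7.11% (1 to 299 nt), 32.0% and 8.15% (300 to 499 nt), 28.0% and 10.6% (500 to 749 nt), and 30.9% and 17.6% (750 nt or more). For 3′ UTRs of 1 to 299 nt the order was the other way, with 3 of 50 genes against 8.21% of the genes without an intron there.

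In genes with several transcripts, UTR introns were seldom drawn alike in all of them. The same first and last base in every other transcript of the gene was found for 24.5% of 5′ UTR introns (74 of 302) and 25.8% of 3′ UTR introns (17 of 66), against 82.1% of CDS introns (1610 of 1961). Among 5′ UTR introns, the most frequent other state was an intron with different limits, with 119 introns (39.4%). A further 61 (20.2%) were kept as exon in at least 1 other transcript, and 48 (15.9%) lay outside another transcript or reached its end. Among 3′ UTR introns, 21 (31.8%) were kept as exon in at least 1 other transcript, and 14 (21.2%) were overlapped by an intron with different limits. The transcript of each gene was picked by CDS length, and in 459 genes a tie was settled by the ID, so which transcript counts as the other one is partly a matter of numbering. These 459 are among the 898 genes with 2 or more transcripts. Transcripts that share a CDS can differ only outside it, so part of the contrast with CDS introns was fixed in advance. Tied genes and the others were not counted separately.

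**Figure D5:**
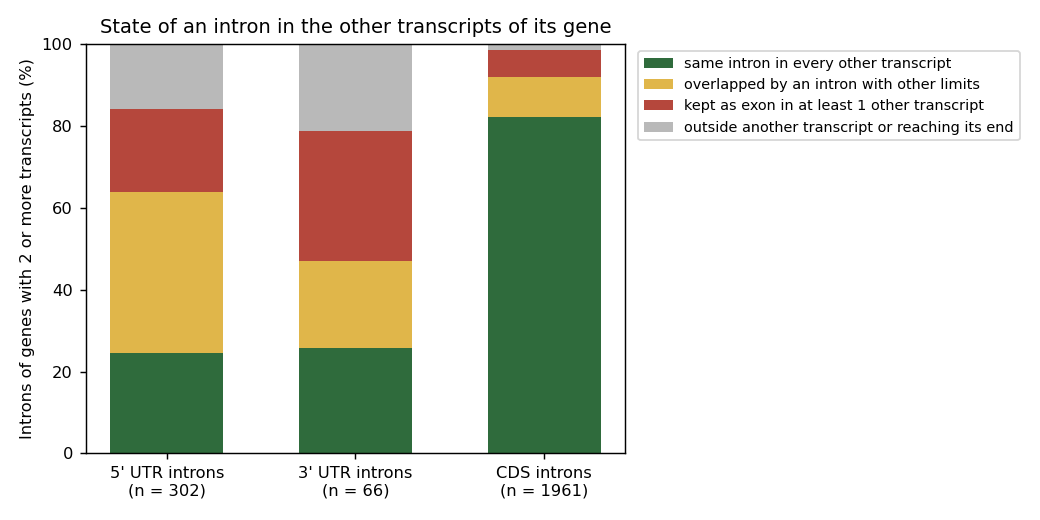
State of the introns of genes with at least 2 transcripts in the other transcripts of the same gene, as percentages of 302 introns in 5′ UTRs, 66 in 3′ UTRs and 1961 in the CDS. The share found with the same limits in every other transcript is 24.5%, 25.8% and 82.1% from left to right.

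The gene frequency (frq, NCU02265), the central component of the circadian clock, is an example. Its chosen transcript had 1 intron, of 498 bp in the 5′ UTR (LG VII, 3132352 to 3132849, plus strand), 343 nt before the start codon. The other 2 transcripts began that intron at the same base and ended it at 3133006, which gave 655 bp. One of them had a further intron of 185 bp (3133148 to 3133332) and a CDS of 2673 nt, against 2970 nt in the chosen transcript. The alternatives for en(am)-2 differed less, with 1775 bp in the chosen transcript and 1779 bp in the other. In hH2Az, the farther intron measured 285 bp in the chosen transcript and 279 bp in both others.

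Exons between successive introns of the same UTR could be very short. The 118 such exons in 5′ UTRs had a median of 160 nt, and 7 were under 20 nt. The shortest, 7 nt, lay between the introns of 85 and 101 bp of NCU05863. In 3′ UTRs there were 20 such exons with a median of 167 nt, and the shortest measured 27 nt (NCU06322). Very short exons were not particular to UTRs. The 8057 exons between successive CDS introns had a median of 204 nt, and the shortest measured 3 nt (NCU01768). Of these 8057, 207 were under 20 nt, a smaller share than the 7 of 118 in 5′ UTRs.

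Introns of 3′ UTRs overlapped neighboring genes more often than the other classes. At least 1 base lay in another protein-coding gene for 58 of 289 introns of 3′ UTRs (20.1%), against 18 of 1052 in 5′ UTRs (1.71%) and 266 of 15631 in the CDS (1.70%). Of the 58, 56 overlapped a gene on the opposite strand, and 23 of the 58 reached the CDS of another gene. The exons of 3′ UTRs behaved likewise, with 17.5% of their bases in another gene, against 2.75% for 5′ UTR exons and 2.05% for CDS exons. In genes with a 3′ UTR intron this exon share was 28.3%. What part neighboring transcripts played in the drawing of these models was not tested.

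UTR introns were found on all 7 linkage groups. The share of genes with a 5′ UTR intron was 11.2% on LG I (262 of 2347) and between 8.75% (LG IV) and 9.73% (LG II) on the others. The share with a 3′ UTR intron lay between 2.51% (LG I) and 3.25% (LG VII). Median lengths of 5′ UTR introns lay between 93 bp (LG IV) and 118.5 bp (LG V).

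Gene groups were read from the symbols of a RefSeq table, which gave a symbol for 1118 of the 9730 genes. Among those 1118, 156 (13.95%) had a 5′ UTR intron and 27 (2.42%) a 3′ UTR intron, against 9.60% and 2.76% of all genes. Genes with a symbol also had annotated UTRs more often, and a gene without a UTR cannot hold such an intron. A 5′ UTR was annotated in 1038 of the 1118, against 7622 of all 9730 genes, and a 3′ UTR in 1056, against 7775. The groups are small, and each count is a description. Among 18 genes of the circadian clock and light response, all with both UTRs annotated, 5 had a 5′ UTR intron and 1 had a 3′ UTR intron. Besides frq these were al-3 (NCU01427), which makes geranylgeranyl pyrophosphate for carotenoids, with 482 bp at 301 nt from the start codon, and fwd-1 (NCU04540), whose F-box protein acts on the FRQ protein, with introns of 101 and 203 bp. The clock-controlled gene ccg-9 (NCU09559), encoding trehalose synthase, had an intron of 60 bp, and ccg-14 had introns of 303, 161, 64 and 61 bp. The intron of al-3 was the sole intron of its 1 annotated transcript. The 3′ UTR intron was that of ccg-4.

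The other groups were counted in the same way, beside the 9.60% of all genes with a 5′ UTR intron and the 2.76% with a 3′ UTR intron. Among 79 glycoside hydrolase genes, which act on polysaccharides, 7 had a 5′ UTR intron (8.86%) and 2 a 3′ UTR intron, both of the gh61 family (36 bp in gh61-7 and 59 bp in gh61-1). A 5′ UTR was annotated in only 56 of these 79 genes and a 3′ UTR in 58. Among 53 serine/threonine protein kinase genes, of which 44 had a 5′ UTR and 45 a 3′ UTR, 3 had a 5′ UTR intron (5.66%). The longest of them measured 458 bp in stk-18, and 1 kinase gene had a 3′ UTR intron (62 bp in stk-20). Among 29 subunits of respiratory complex I, 2 had a 5′ UTR intron (6.90%), with 241 bp in nuo9.5 and 57 bp in nuo9.8. Of 9 histone genes, hH2Az alone had a UTR intron. None was annotated in the 7 ribosomal protein genes with a crp symbol or in the 9 genes of heterochromatin and histone methylation. The latter include dim-2 and dim-5, which encode a DNA and a histone methyltransferase. At the shares over all genes, lists this small can readily hold none.

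Among the 24 genes interrupted in both UTRs were stt4 (NCU09367), a phosphatidylinositol 4-kinase gene, with 132 bp in the 5′ UTR and 59 bp in the 3′ UTR, and nuc-2 (NCU11426), a regulator of phosphate acquisition, with 84 and 106 bp. NCU16718 had introns of 539 and 346 bp around a CDS of only 267 nt.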

How the data were processed

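The authors deposited a gene annotation of nc14, whose values are start and end positions of features in bp, not normalized. How gene models were moved to nc14, and the evidence behind each UTR, are not given in the sources used here. Of the columns, 0 hold values of single samples.

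Introns, UTR lengths and distances were computed from exon, CDS and stop codon records of 10785 protein-coding transcripts with pandas 2.3.3, numpy 2.4.6 and scipy 1.17.1 under Python 3.11.15, and matplotlib 3.10.9 drew the plots. The CDS records leave out the stop codon, which was added back for distances. The code was tested on simulated gene models. Symbols came from the RefSeq table of assembly NC12, which lists 9729 of the 9730 genes. No symbol of a list for decay and splicing matched, nor did eed, suz12, epr-1 or ash1. That table holds no product names, so lists by product were not run.

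The members and lists were chosen with earlier results of these data known. Named genes are those with the 5 longest, 5 farthest, 3 shortest and most UTR introns of each class, with a gene inside an intron, or in the clock, heterochromatin or decay lists. Genes whose intron touches a codon, with introns in both UTRs, with the shortest exons and of the other lists were added once their values were known. The alternatives were other choices of transcript, limits of 30 and 1000 bp on length, the stop codon as CDS, introns not touching the CDS, genes with both UTRs, genomic distance, and leaving out 4 displaced genes of LG I.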

Additional observations from a re-analysis of the deposited data

How the results depend on the processing

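Of 119 values recomputed under the alternatives, 113 stayed close to the reported value, within 1.5 times for a count, a median or a density and within the 95% Wilson interval for a share, and 6 did not. The Wilson interval served only as a limit, because a complete count has no sampling error. It is much the narrower limit, and all 6 values outside were counts or shares. With every transcript used and each distinct intron counted once, 5′ UTR introns numbered 1645, and 12.8% of genes had one in the 5′ UTR and 3.37% in the 3′ UTR. With the transcript of the longest summed exons, 10.4% of genes had a 5′ UTR intron. Among genes with both UTRs, the shares were 12.4% for the 5′ UTR and 3.37% for the 3′ UTR, by construction, since genes without a UTR cannot hold such an intron. Medians moved little, over 101 to 108 bp for 5′ UTR introns, 70 to 72 bp for 3′ UTR introns and 72 to 75 bp for CDS introns. The order of densities held under each alternative. With every transcript used, however, the 5′ UTR density rose from 0.344 to 0.513 introns per kb, just inside the limit of 1.5 times. The CDS density went from 1.05 to 1.07 and the 3′ UTR density from 0.0855 to 0.109. The number of 3′ UTR introns rose from 289 to 377, which also counted as close. The 113 close values include many that had little or no room to move. Choosing the lowest transcript ID left every value unchanged, and the lower limit on length removed no UTR intron. The 4 displaced genes of LG I hold 0 UTR introns. These alternatives raise the number of close values but say little about how stable the UTR results are. No paired analysis was possible because no file holds values of single samples. The annotation gives no support per model, so precision per intron cannot be stated.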
